A study of Homo sapiens with 8 samples.

Results

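The genes that make, store and break down the monoamines were examined in prostate cancer cells with more or less MYCL, a MYC family transcription factor. The 9 genes were DDC, TH, DBH, GCH1, TPH1, SLC18A1, SLC18A2, MAOA and MAOB, of 78691 genes in the count table, each taken by its gene name. DDC was chosen by its measured values in the NCI-H660 libraries, where it fell strongly after MYCL knockdown. That fall is therefore given as a description with no test, and the other genes follow it because they belong to the same pathway.

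Monoamines such as dopamine, noradrenaline and serotonin are made from aromatic amino acids. Tyrosine hydroxylase (TH) or tryptophan hydroxylase (TPH1) adds a hydroxyl group with the help of tetrahydrobiopterin, whose synthesis begins with GCH1, and DDC, the aromatic L-amino acid decarboxylase, then forms dopamine or serotonin. DBH turns dopamine into noradrenaline, SLC18A1 and SLC18A2 are the transporters that load the amines into secretory vesicles, and MAOA and MAOB at the mitochondrial surface oxidise them. Neuroendocrine cells of many tissues, the prostate included, can hold such amines, and DDC activity is a long-used neuroendocrine feature.

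RNA sequencing of 8 libraries was used, in 4 groups of 2. C4-2B, a castration-resistant prostate adenocarcinoma line, carried either an empty lentiviral vector (control) or a vector from which the EF1A promoter drives human MYCL together with EGFP (MYCL). NCI-H660, a line from a neuroendocrine prostate cancer (NEPC), had received either a non-targeting shRNA (shCtrl) or shRNA against MYCL (shMYCL). The study built both an adenoviral and a lentiviral shRNA vector against MYCL, and which of them these libraries received is not given in the sources used here. For its prostate cancer cells the study names RPMI-1640 with serum. The growth protocol in the sample labels names growth supplements for NCI-H660 and none for C4-2B, so the media may have differed. Lentivirally transduced cells were kept by drug selection or by sorting. The added MYCL in C4-2B is under a constitutive promoter, and the MYCL of NCI-H660 is at its own locus. Line, vector, batch and any difference in medium cannot be told apart in any comparison between the lines. The lines met their labels by marker genes: 7 of 7 luminal markers had more than 3 counts in a C4-2B library, where their summed level was 3090 to 3990 CPM (counts scaled to a common library size) against 1.73 to 3.63 in NCI-H660, and 6 of 6 neuroendocrine markers did in NCI-H660. Library totals ran from 15177071 to 32344170 counts.

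Because DDC carries the main result, the DNA just before its annotated starts is shown. DDC (ENSG00000132437.19) lies on the minus strand at chr7:50458436-50565405 (GRCh38). Its 14 annotated transcripts, 10 of them protein-coding and 460 to 2012 bases long, include an upstream start and a downstream start 4334 bases apart. The antisense gene DDC-AS1 shares 3.7% of the DDC exon bases and had 0 to 1 counts in a library. Alternative leading exons of this gene are known from neural and non-neural tissue. The 250 bases before each start, from RefSeq (GRCh38.p14), are given 5′ to 3′ on the minus strand, at chr7:50565406-50565655 and chr7:50561072-50561321. Capitals mark CANNTG, the E-box that basic helix-loop-helix factors such as the MYC family can bind, read on either strand.
DDC upstream start: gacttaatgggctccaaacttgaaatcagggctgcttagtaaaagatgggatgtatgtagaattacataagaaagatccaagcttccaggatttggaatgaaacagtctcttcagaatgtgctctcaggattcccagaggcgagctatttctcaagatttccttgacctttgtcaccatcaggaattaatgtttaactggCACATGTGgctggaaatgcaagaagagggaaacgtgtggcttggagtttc
DDC downstream start: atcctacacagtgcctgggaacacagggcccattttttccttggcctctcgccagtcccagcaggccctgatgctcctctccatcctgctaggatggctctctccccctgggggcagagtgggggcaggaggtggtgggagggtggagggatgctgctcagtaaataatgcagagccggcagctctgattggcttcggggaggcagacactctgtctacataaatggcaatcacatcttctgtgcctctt

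The upstream window held 2 overlapping CANNTG matches and the downstream window 0. CANNTG occurred in 61.8% of the 35116 RefSeq promoter windows, so a match is common. The canonical E-box CACGTG, which is 1 of the forms of CANNTG, was in 6.34% of all windows and in 0 of the 7 windows available for 6 of the 9 genes (DDC, DBH, SLC18A2, TPH1, MAOA and MAOB). Another form, CAGCTG, was in 14.0% of all windows and among these genes in those of TPH1 and MAOA. These are letter matches in short windows, and binding was not analysed here.

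MYCL itself followed the labels. It had 371 and 320 counts in the C4-2B control libraries and 65524 and 70253 in those with the MYCL vector, a log2 fold change of 8.26 (SE 0.12, adjusted p = 3.91e-09, Benjamini-Hochberg over all genes tested, edgeR quasi-likelihood). In NCI-H660 it had 1863 and 1602 counts with shCtrl and 165 and 198 with shMYCL, a log2 fold change of -3.06 (SE 0.15). The forced level in C4-2B was 42.9 times the mean CPM of the NCI-H660 shCtrl libraries.

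DDC was lower after MYCL was raised in C4-2B and lower after MYCL was reduced in NCI-H660. It had 1010 and 849 counts in the C4-2B control libraries and 368 and 332 in the C4-2B MYCL libraries. In CPM, normalized across the 8 libraries by the trimmed mean of M-values (TMM), the controls stood at 32.8 and 37.7 and the MYCL libraries at 20.93 and 20.02. Both MYCL libraries were below both control libraries. In these bulk libraries, fewer cells that express a gene and less of its RNA per cell cannot be told apart.

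The fall of DDC in C4-2B passed the test, with a log2 fold change of -0.77 (SE 0.10, adjusted p = 7.23e-04, edgeR quasi-likelihood, Benjamini-Hochberg), or a ratio of 1.72 between the mean levels of 35.2 ± 3.44 and 20.5 ± 0.645 CPM (SD, n = 2 each). A gene was called here at an adjusted p under 0.05 and a log2 fold change of at least 0.5 in size. This comparison was not the one that chose DDC. It was the only 1 of the 3 members tested in C4-2B that was called, where 19.9% of all 16866 genes tested were called and 8.12% were called lower. By size of fall DDC was number 611 of the 1369 genes called lower.

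In NCI-H660 the fall of DDC was larger in these values. It had 1135 and 1026 counts with shCtrl and 117 and 129 with shMYCL, or 63.4 and 52.3 CPM against 7.29 and 7.80 CPM. Every shMYCL library was far below the lowest library of any other group. The log2 fold change was -2.94 (SE 0.15), a ratio of 7.67 between mean levels of 57.9 ± 7.87 and 7.55 ± 0.363 CPM (SD, n = 2 each), and it placed DDC at number 46 of the 1526 genes called lower. Of 16980 genes tested, 16.2% were called in this contrast, 8.99% lower and 7.18% higher. Of the 4 members fitted, 1 was past these thresholds, DDC, and since this contrast chose it, neither that nor its rank is evidence about DDC.

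**Figure D1:**
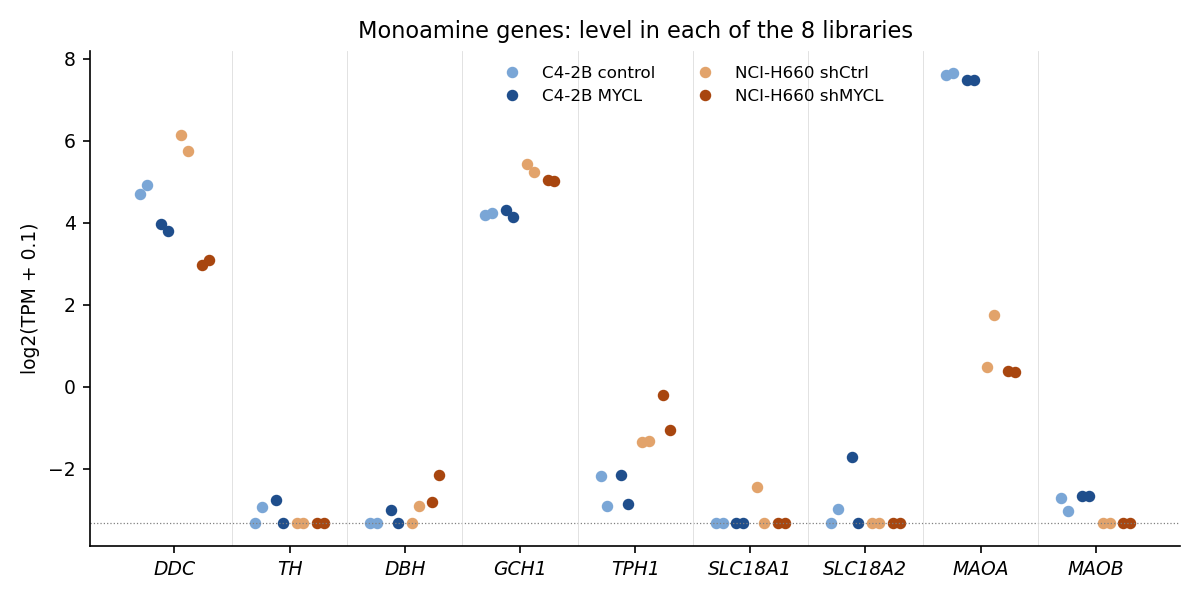
Level of each of the 9 genes in each of the 8 libraries, as log2(TPM + 0.1), with genes on the x axis, 1 point per library and a colour per group, and a dotted line where a value of 0 falls. DDC is lowest in the 2 NCI-H660 shMYCL libraries (7.75 and 8.45 TPM), MAOA is highest in the C4-2B libraries, and TH, DBH, SLC18A1 and MAOB lie at or near the line in all 8.

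The order of the DDC levels was NCI-H660 shCtrl, C4-2B control, C4-2B MYCL and NCI-H660 shMYCL, with no overlap between neighbours. It was not the order of the MYCL levels, which were 92.9 ± 15.9 CPM in shCtrl, 13.1 ± 1.52 in C4-2B control, 3982 ± 360 in C4-2B MYCL and 11.1 ± 1.20 in shMYCL (SD, n = 2 each). The group with the most MYCL and the group with the least were those with the lower DDC. C4-2B control and NCI-H660 shMYCL were close in MYCL, with a ratio of mean CPM of 1.18, while their DDC levels stood 4.67-fold apart.

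**Figure D2:**
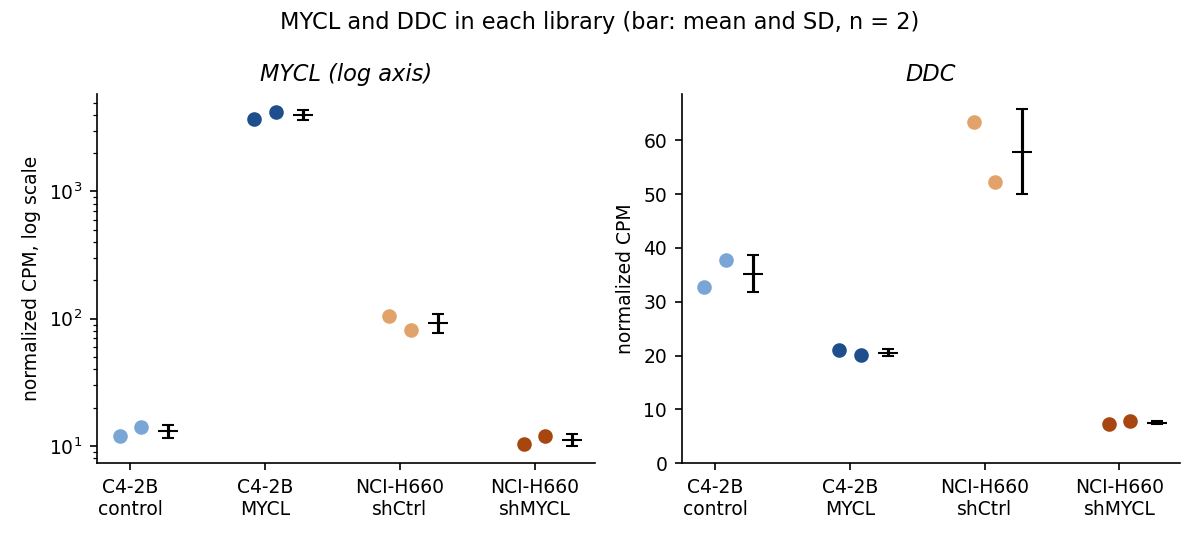
MYCL (left, logarithmic axis) and DDC (right, linear axis) in each library, in normalized CPM, with groups on the x axis, points for libraries and bars for the mean and SD of 2 libraries. C4-2B MYCL has the highest MYCL, at 3982 CPM, and the second lowest DDC, at 20.5 CPM, and NCI-H660 shMYCL has the lowest of both.

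Genes called lower in both contrasts were few. Of 14212 genes tested in both lines, 72 were lower after the rise of MYCL in C4-2B and also after its knockdown in NCI-H660, which was 0.507% of those genes, 5.26% of the genes lower in C4-2B and 4.72% of the genes lower in NCI-H660. Over all genes tested in a line, 8.99% were called lower in NCI-H660 and 8.12% in C4-2B, so both overlap shares were under the share over all genes. The lines share no library, so the contrasts are separate measurements. DDC is among the 72 by its test in C4-2B and by the NCI-H660 contrast that chose it, so its place there is a description. Within the 72 it ranked 3 by its fall in NCI-H660 and 31 by its fall in C4-2B.

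Between the control groups, DDC was higher in NCI-H660 than in C4-2B. The shCtrl and C4-2B control libraries differed by a log2 fold change of 0.72 (SE 0.12), a ratio of 1.64 between means. The shCtrl values also entered the rule, so no p is given. After knockdown, NCI-H660 cells held less DDC RNA than either C4-2B group, 2.71-fold below C4-2B MYCL.

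The 5 genes whose profile over the 8 libraries was most like that of DDC were CLEC7A, ENSG00000293240, SIDT1, ENSG00000300693 and NBPF19, of 19605 genes. Likeness was the root mean square difference of log2 CPM profiles centred on their own means, from 0.354 for CLEC7A to 0.534 for NBPF19. These genes were picked by the same 8 libraries, the NCI-H660 values that chose DDC included. Their fold changes and calls therefore follow from the choice and are a description only. All 5 fell in NCI-H660, with log2 fold changes from -2.56 for CLEC7A to -2.03 for NBPF19. Their C4-2B log2 fold changes ran from -0.68 for NBPF19 to -0.40 for SIDT1, and 0 of the 5 were called there by edgeR or DESeq2, with 2 under an unadjusted p of 0.05 by edgeR.

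Of 19 genes within 500 kb of DDC, 4 were tested in C4-2B and 5 in NCI-H660, and 1 was called in each line. Over all genes tested, 19.9% were called in C4-2B and 16.2% in NCI-H660, so these counts show nothing particular to the locus. FIGNL1, an ATPase of recombination repair whose gene body lies 8.05 kb away, fell in C4-2B by 1.05 on the log2 scale (SE 0.11, adjusted p = 2.40e-04, edgeR quasi-likelihood, Benjamini-Hochberg), and its NCI-H660 value was 0.02. IKZF1, a lymphoid transcription factor, rose in NCI-H660 from 55 and 64 to 91 and 83 counts, with a log2 fold change of 0.75 (SE 0.26, adjusted p = 0.0453, edgeR quasi-likelihood, Benjamini-Hochberg). GRB10, an adaptor of insulin signalling 24.7 kb away, had a log2 fold change of -0.40 in each line, under the minimum of 0.5.

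The deposited counts and TPM (a transcript abundance that corrects for gene length) together imply the transcript length used for a gene in each library. The study's methods name gene lengths from an annotation, but 1 fixed length per gene would give the same value in every library, and the tables do not. How the TPM were made is therefore not settled, which bears on the implied lengths and on every TPM ratio. For DDC this length was 1680, 1656, 1664 and 1657 bases in the C4-2B libraries and 1809, 1863, 1859 and 1837 bases in the NCI-H660 libraries. The lines did not overlap. The means of 1664 ± 10.8 and 1842 ± 24.9 bases (SD, n = 4 each) differed by 177.6 bases or 10.7%, with an exact two-sided permutation p = 0.0286, the smallest that 4 against 4 libraries can give. Each set of 4 pools the control and the MYCL-altered libraries of a single line, so this p describes these libraries only. GCH1 showed 2969 ± 39.6 and 2949 ± 48.4 bases (SD, n = 4 each, exact two-sided permutation p = 0.571). Of 10448 genes with at least 50 counts in every library, 19.4% did not overlap between the lines and 7.98% differed without overlap by at least as large a share as DDC, so such a difference was not rare. It does not show which DDC start was used, because the tables hold gene-level values only.

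**Figure D3:**
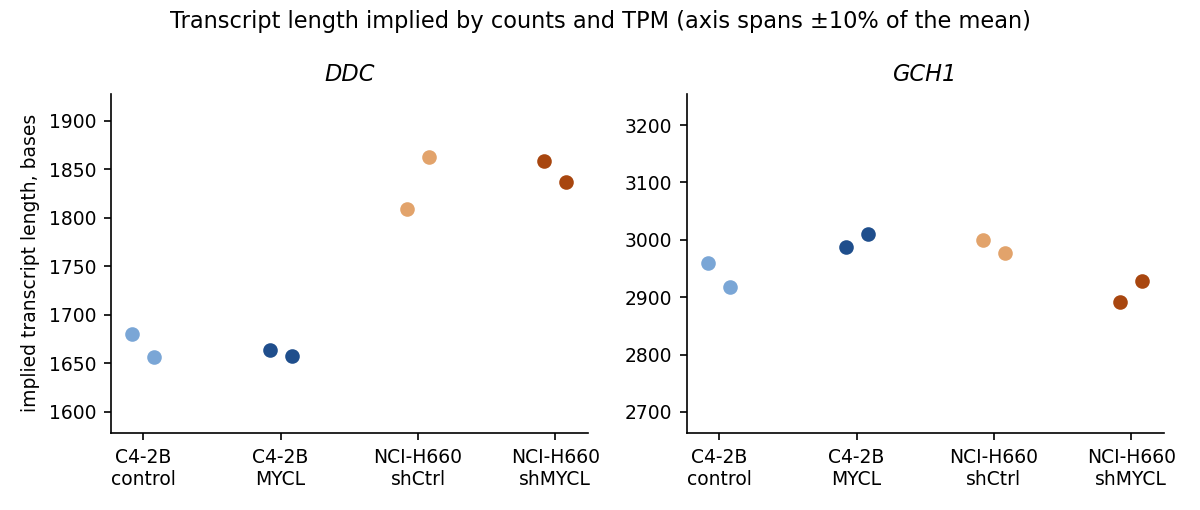
Transcript length implied by the deposited counts and TPM for DDC and GCH1 in each library, in bases, with points for libraries, groups on the x axis and a y axis that does not start at 0. The 4 NCI-H660 libraries lie at 1809 to 1863 bases for DDC, above the 4 C4-2B libraries at 1656 to 1680, while the GCH1 values of the lines overlap.

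The hydroxylase steps before DDC were almost absent as RNA. TH (chr11:2163929-2171815) had 0 counts in 6 of 8 libraries and never more than 1, so tyrosine hydroxylase transcripts were at or under what a count of 0 allows, 3 counts or 0.0974 to 0.187 CPM by library. TPH1 (ENSG00000129167.12, chr11:18017555-18046269) had 12 and 2 counts in C4-2B control, 6 and 2 in C4-2B MYCL, 12 and 15 in shCtrl and 22 and 19 in shMYCL. The shMYCL libraries were the highest, but at a depth that gives little precision. TPH1 was not tested in C4-2B, its NCI-H660 log2 fold change was 0.80 (SE 0.49), and its difference between the lines at baseline was 1.49 (SE 0.70, adjusted p = 0.0663, edgeR quasi-likelihood, Benjamini-Hochberg), which missed the threshold. Of its exon bases, 5.03% are shared with another annotated gene.

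GCH1 (ENSG00000131979.21, chr14:54842008-54902826), the GTP cyclohydrolase that begins tetrahydrobiopterin synthesis, was well expressed in every group and moved little. It had 1281 and 956 counts in C4-2B control, 860 and 773 in C4-2B MYCL, 1155 and 1168 in shCtrl and 775 and 800 in shMYCL. Its mean levels were 41.999 ± 0.575, 47.8 ± 1.63, 62.1 ± 3.54 and 48.3 ± 0.0720 CPM in that order (SD, n = 2 each). The shCtrl libraries stood above all others.

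The C4-2B difference of GCH1 did not pass the test (log2 fold change 0.19, SE 0.08, adjusted p = 0.0977, edgeR quasi-likelihood, Benjamini-Hochberg). In NCI-H660 its log2 fold change was -0.36 (SE 0.11), under the minimum of 0.5. Between the lines at baseline GCH1 was higher in NCI-H660 by 0.56 on the log2 scale (SE 0.09, adjusted p = 6.74e-05, edgeR quasi-likelihood, Benjamini-Hochberg). Of the 4 members fitted between the lines 3 were past the thresholds, where 69.8% of all 19605 genes were, 36.5% higher and 33.3% lower. GCH1 (higher in NCI-H660) and MAOA (lower) were 2 of these by test, and DDC is counted only as a description, because its shCtrl values entered the rule.

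DBH and the vesicle transporters were near or at 0. DBH (chr9:133636363-133659329) had 0 to 3 counts, with 0 in 4 libraries. SLC18A1 (chr8:20144855-20183206) had 0 counts in 7 libraries and 1 in the other. SLC18A2 (chr10:117241093-117279430) had 0 counts in all 4 NCI-H660 libraries, 0 and 2 in C4-2B control, and 11 and 0 in C4-2B MYCL. The 11 counts came from 1 library, and 56.4% of the exon bases of SLC18A2 are shared with neighbouring genes, so that value is uncertain. At this depth, neither line showed transcripts of a vesicular monoamine transporter above the limit in both libraries of any group.

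MAOA (ENSG00000189221.12, chrX:43654907-43746817) separated the lines. It had 12549 and 9772 counts in C4-2B control and 7937 and 7968 in C4-2B MYCL, but 49 and 81 in shCtrl and 29 and 32 in shMYCL. The mean levels were 420.5 ± 18.4, 466.0 ± 20.5, 3.43 ± 0.984 and 1.87 ± 0.0910 CPM (SD, n = 2 each). MAOA was 122.4-fold lower in NCI-H660 shCtrl than in C4-2B control, a log2 fold change of -6.92 (SE 0.14, adjusted p = 2.39e-13, edgeR quasi-likelihood, Benjamini-Hochberg). The MAOA counts in NCI-H660 stood beside 0 counts of the luminal genes KLK2, KLK3 and FOLH1 in those libraries.

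MAOA was not called within either line. Its C4-2B log2 fold change was 0.15 (SE 0.07, adjusted p = 0.132, edgeR quasi-likelihood, Benjamini-Hochberg), and on TPM it was -0.13, on a scale where the median of all genes tested also lay at -0.14, so its sign depends on the scaling. In NCI-H660 it was -0.88 (SE 0.34), or -0.55 without shCtrl replicate 2, which alone held 81 counts. MAOB (chrX:43766610-43882450) had 3 and 1 counts in C4-2B control, 2 and 2 in C4-2B MYCL and 0 in all NCI-H660 libraries. Across the 9 genes, 5 (TH, DBH, SLC18A1, SLC18A2 and MAOB) were too low to be tested in any comparison.

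**Figure D4:**
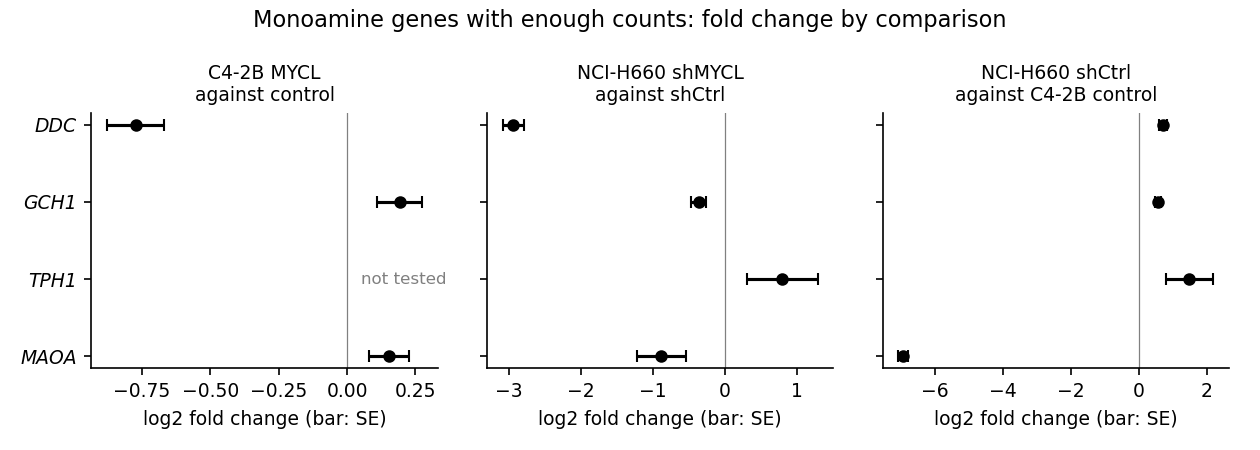
Log2 fold changes with standard errors of the members tested in each comparison, with a panel and an x range of its own for each comparison and a line at 0. DDC lies at -0.77 in C4-2B and at -2.94 in NCI-H660, GCH1 stays within 0.56 of 0 in every comparison, and MAOA lies at -6.92 between the lines.

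Whether a member responded to MYCL differently in the lines was asked as the C4-2B effect minus the reversed NCI-H660 effect, that is, high against low MYCL in each. The MYCL change was not equal in the lines, with log2 fold changes of 8.26 in C4-2B and -3.06 in NCI-H660. MYCL itself differed by 5.19 (SE 0.21) in this comparison. The size of the MYCL change and the line therefore cannot be told apart in it. Of the 3 members tested other than DDC, 0 were called by the edgeR quasi-likelihood test (Benjamini-Hochberg adjusted), where 17.9% of all genes were, 8.33% lower and 9.59% higher. At an unadjusted p under 0.05 there was 1, MAOA, with a difference of -0.73 (SE 0.26) and an adjusted p of 0.0596 by edgeR, and DESeq2 called it with an adjusted p of 0.0305. GCH1 had a difference of -0.17 (SE 0.13) and TPH1 of 0.70 (SE 1.05).

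Per length, in TPM, the balance of the expressed members differed by group. The ratio of DDC to GCH1 was 1.43 and 1.60 in C4-2B control, 0.786 and 0.795 in C4-2B MYCL, 1.65 and 1.42 in shCtrl, and 0.237 and 0.261 in shMYCL. DDC stood above GCH1 in both control groups and below it in both groups with altered MYCL. In NCI-H660 this holds the fall that chose DDC, so that part is a description. The ratio of MAOA to DDC was 7.49 and 6.66 in C4-2B control and 11.5 and 12.9 in C4-2B MYCL, against 0.0184 and 0.0604 in shCtrl and 0.155 and 0.139 in shMYCL. By TPM the order was therefore MAOA, DDC, GCH1, TPH1 in C4-2B control and DDC, GCH1, MAOA, TPH1 in shCtrl, and DDC and GCH1 exchanged places in each line when MYCL was altered.

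The wider pathway was followed in 9 lists of 89 other genes. In C4-2B 39 of them were tested, and 6 rose and 3 fell, with a median log2 fold change of 0.07 against -0.002 over all genes. In NCI-H660 46 were tested, and 3 rose and 8 fell, with a median of -0.12 against -0.003 over all genes. The called share of all genes was 19.9% and 16.2%.

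All 7 genes of tetrahydrobiopterin synthesis and recycling were tested in both lines. In C4-2B, GCHFR, the feedback regulator of GCH1, rose by 0.67 on the log2 scale, from 13.5 and 14.6 to 21.2 and 23.3 CPM (SE 0.11, adjusted p = 0.00195, edgeR quasi-likelihood, Benjamini-Hochberg). In NCI-H660 0 of the 7 were called by edgeR or by DESeq2, with 1 under an unadjusted p of 0.05. Of the 3 genes that supply pyridoxal phosphate, the cofactor of DDC itself, 0 were called in either line by either tool, and 1 in each line was under an unadjusted p of 0.05 with a change below the minimum.

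Genes of amine breakdown and transport were called in each line. In C4-2B, the aldehyde dehydrogenase ALDH2, which acts after the monoamine oxidases, rose from 524 and 499 to 858 and 887 counts, a log2 fold change of 1.40 (SE 0.13, adjusted p = 1.06e-04, edgeR quasi-likelihood, Benjamini-Hochberg). SULT1A1, a phenol sulfotransferase, rose by 1.06 in C4-2B (SE 0.15), with reads that related genes may share. The related SULT1A3, of the same list, stood at -0.37 there (SE 0.13) and was not called. The low-affinity amine transporter SLC22A3 fell in C4-2B from 2667 and 1777 to 248 and 220 counts, by 2.59 on the log2 scale (SE 0.10, adjusted p = 2.33e-06, edgeR quasi-likelihood, Benjamini-Hochberg). Another transporter of this kind, SLC29A4, rose there from 44 and 40 to 72 and 101 counts, a log2 fold change of 1.68 (SE 0.31). SLC3A2, the heavy chain of the large amino acid transporter that brings in DDC substrates, rose by 1.19 (SE 0.13). The other 3 genes of that list were not called in C4-2B, with SLC7A5 at 0.10, SLC7A8 at 0.03 and SLC16A10 at -0.26. Uptake was not measured here.

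In NCI-H660, AOC1, the diamine oxidase, fell from 345 and 462 to 134 and 145 counts, a log2 fold change of -1.33 (SE 0.16, adjusted p = 2.97e-05, edgeR quasi-likelihood, Benjamini-Hochberg), and the aromatic amino acid transporter SLC16A10 rose by 0.56 (SE 0.15), a call that DESeq2 did not make (0 of the list called). Of the other amine-forming enzymes, ODC1, which makes putrescine, fell in C4-2B by 0.51 (SE 0.08), and GAD1, which makes GABA, rose there from 1.79 and 1.24 to 3.53 and 3.62 CPM, a log2 fold change of 1.23 (SE 0.32). DESeq2 called 1 gene of this list in C4-2B against 2 by edgeR. In NCI-H660 3 such genes were tested and 0 were called by edgeR or DESeq2, with 1, ODC1 at 0.37, under an unadjusted p of 0.05.

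Of 18 transcription factors of monoamine and neuroendocrine lineages, 8 were tested in NCI-H660, and 3 fell and 0 rose. Over all genes tested there, 8.99% were called lower and 7.18% higher. POU3F2, a neural POU-domain factor, went from 807 and 853 to 410 and 376 counts, a log2 fold change of -0.88 (SE 0.12, adjusted p = 1.06e-04, edgeR quasi-likelihood, Benjamini-Hochberg). INSM1, a zinc-finger factor of neuroendocrine cells, fell by 0.65 (SE 0.11). The summed level of the 6 neuroendocrine markers, which include INSM1, was 1310 to 1430 CPM in shCtrl and 875 to 948 CPM in shMYCL, and its part in the fall of DDC was not tested. In C4-2B, 0 of the 5 factors tested were called by edgeR or DESeq2, although FOXA1 at -0.40 and GATA2 at 0.26 were 2 with an unadjusted p under 0.05, and the neuroendocrine sum was 11.4 to 14.1 CPM.

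Of 28 dopamine, serotonin and adrenergic receptors, 10 were tested in NCI-H660, and 2 rose and 4 fell by edgeR, 6 calls against 4 by DESeq2. Over all genes tested there, edgeR called 16.2%, with 8.99% lower and 7.18% higher. The serotonin receptor HTR1D rose from 14 and 40 to 68 and 75 counts, a log2 fold change of 1.61 (SE 0.39, adjusted p = 0.00691, edgeR quasi-likelihood, Benjamini-Hochberg). The adrenergic receptor ADRA2A fell from 225 and 174 to 52 and 71 counts, by 1.51 on the log2 scale (SE 0.23, adjusted p = 2.79e-04, same test), and HTR3A fell by 1.19 (SE 0.33). The remaining called receptors, named after their values were seen, were DRD2, which rose from 846 and 912 to 1395 and 1344 counts, DRD1, which fell from 286 and 249 to 153 and 122, and ADRA2C, which fell by 1.00. In C4-2B 6 receptors were tested and 0 were called by edgeR, against 1 by DESeq2 and 1 at an unadjusted p under 0.05.

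**Figure D5:**
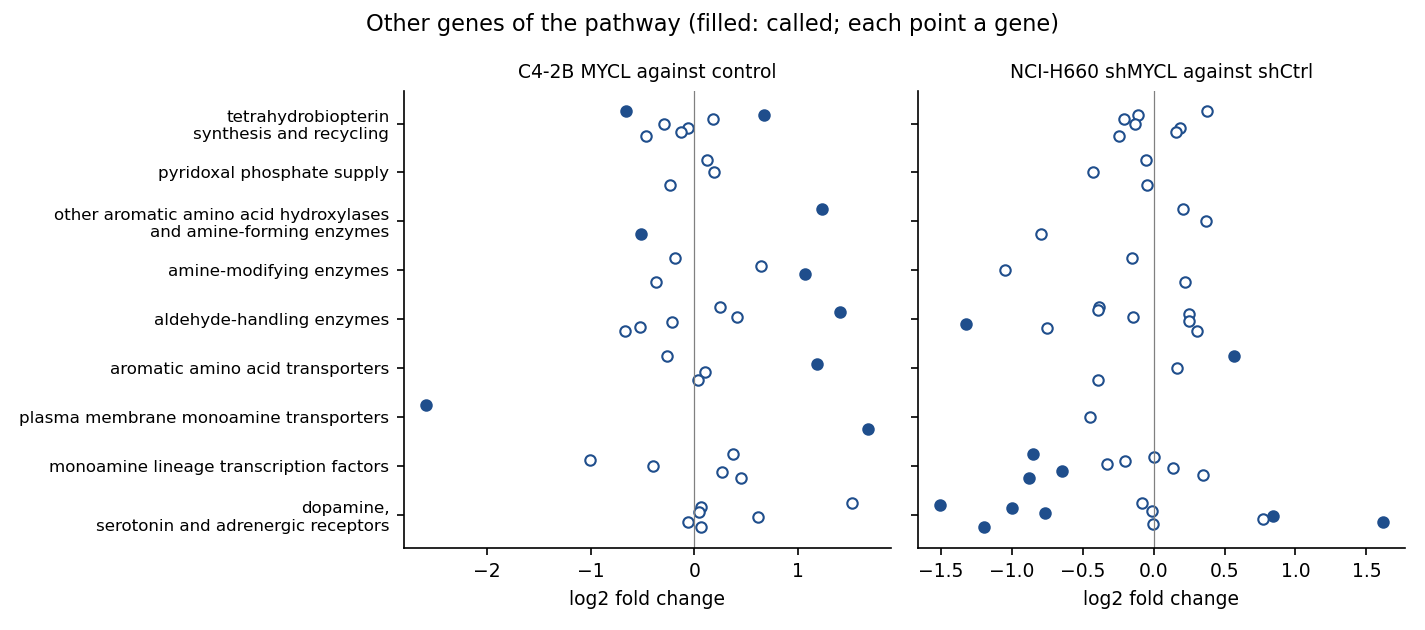
Log2 fold change of each pathway gene tested in C4-2B (left) and NCI-H660 (right), with the 9 lists on the y axis, 1 point per gene, filled where called, and an x range of its own for each panel. SLC22A3 at -2.59 is the farthest of the called values in C4-2B, and HTR1D at 1.61 and ADRA2A at -1.51 are the farthest in NCI-H660.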

How the data were processed

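The authors deposited estimated counts per gene (expected counts, from paired-end sequencing of poly(A) RNA, not normalized between libraries). They also deposited TPM, for which the study's methods name annotated gene lengths, although the length that the counts and TPM imply for a gene varied between libraries. The submitters' processing notes name hg38. The aligner and counter are not given in the sources used here. Estimated counts were rounded to whole numbers, since 34.4% of the non-zero values were not whole. The members and lists were chosen with earlier results of these data known. Tests used edgeR 4.0.16 (R 4.3.3) with TMM normalization, filterByExpr, the quasi-likelihood test and Benjamini-Hochberg adjusted p-values, fitted within each line (16866 and 16980 genes) or over all 4 groups (19605 genes), and were tested on simulated data. Calls needed an adjusted p under 0.05 and a log2 fold change of 0.5 or more in size. Within-group variation (biological coefficient) was 0.0829 for C4-2B and 0.0965 for NCI-H660. DESeq2 1.42.0 and limma 3.58.1, the latter on log2(TPM + 1) and log2(TPM + 0.1), were alternatives, beside other filters and each library left out. Not all labels say that replicates were separate cultures, so p-values measure the spread between these libraries, which may be technical; an exact permutation test of 2 against 2 libraries cannot go below 0.33. Floors cover counting error only. Gene positions are from GENCODE 44, and promoter sequences from RefSeq.

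Named were all 9 members, MYCL, per list and comparison the 3 called genes with the largest fold, genes within 500 kb of DDC (those called, and GRB10 as the nearest with an adjusted p under 0.05 in each line), and the 5 genes with the profile most like that of DDC. Some genes that met this rule are not reported here.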

Additional observations from a re-analysis of the deposited data

Results flagged for a closer look

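DDC moved in the same direction in both lines although MYCL moved in opposite directions. The log2 fold change was -0.77 for C4-2B MYCL against control and -2.94 for NCI-H660 shMYCL against shCtrl, and the C4-2B value minus the NCI-H660 value with its sign turned was -3.71. Both C4-2B MYCL libraries were below their controls and both NCI-H660 shMYCL libraries were below theirs. This difference was not tested, because the NCI-H660 contrast chose DDC.

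Of the pathway genes called in a line and named by the rule above (at most 3 per list and comparison), 7 also responded to MYCL differently in the lines. The test was edgeR quasi-likelihood (Benjamini-Hochberg adjusted), which called 17.9% of all genes. The called receptors DRD2, DRD1 and ADRA2C fell outside that rule and were not examined for this. Each gene was picked by a call in a contrast that forms part of the difference, so the count of 7 is a description. Values are the C4-2B value minus the NCI-H660 value with its sign turned, on the log2 scale. SLC3A2 differed by 1.35 (adjusted p = 4.36e-04, edgeR). SLC29A4 differed by 1.23 (adjusted p = 0.00844, edgeR), ALDH2 by 1.63 (adjusted p = 0.0170, edgeR) and GAD1 by 1.42 (adjusted p = 0.0111, edgeR). HTR3A differed by -1.26 (adjusted p = 0.0386, edgeR). ADRA2A differed by -5.25 (adjusted p = 0.00112, edgeR), with 14 and 11 counts in C4-2B control and 1 and 0 in C4-2B MYCL. HTR1D differed by 6.21 (adjusted p = 0.0160, edgeR), with 0 counts in both C4-2B control libraries and 3 and 2 in C4-2B MYCL. The sizes and the adjusted p-values for ADRA2A and HTR1D therefore rest on C4-2B values at or near the detection limit. Both genes had already been called in NCI-H660, so these p-values are no separate support for a difference between the lines. As with every comparison between the lines, line, vector and batch cannot be told apart here.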

How the results depend on the processing

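The fall of DDC in C4-2B kept its call under every alternative tried except a minimum log2 fold change of 1, with values from -0.68 (without control replicate 2) to -0.91 (limma on log2(TPM + 0.1)). In NCI-H660 it was -2.79 by limma on log2(TPM + 1), with or without a filter, and -3.07 to -2.79 with 1 library left out. With a minimum log2 fold change of 1, the members called became 0 in C4-2B and 1 between the lines. In NCI-H660 the members called became 2 with at least 10 counts in every library, with all 4 groups in one fit and with no minimum on the fold change, 0 by limma without a filter, and 1 to 2 with 1 library left out (2 without shCtrl replicate 1). For the difference between the lines, the members called became 1 by DESeq2, without a filter on low counts and with at least 10 counts, and were 0 to 1 with 1 library left out (1, MAOA, without shCtrl replicate 1). MAOA in C4-2B reversed to -0.13 in all 3 limma fits on TPM, and the TPH1 difference between the lines ran from -0.21 (without C4-2B MYCL replicate 1) to 2.12 (without C4-2B control replicate 1). TPH1 between the lines was called with control libraries alone (1.47) and without C4-2B control replicate 1 (2.93). Pathway genes called in C4-2B became 14 with all 4 groups in one fit and with no minimum. In NCI-H660 they went from 11 to 5 by limma on log2(TPM + 1), 1 on log2(TPM + 0.1), 0 without a filter, 18 with no minimum and 4 with a minimum of 1. All genes called there by limma numbered 913, 231 and 2 against 2745 by edgeR. The cause was not tested.

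Replicate numbers did not pair the libraries (r of deviations 0.0219 in C4-2B and 0.0319 in NCI-H660). With the replicate block, all genes called went from 3355 to 3536 in C4-2B and from 2745 to 2949 in NCI-H660, and the members called stayed at 1 in each. At this depth, 5 of 9 members could not be tested.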
